A study of Mus musculus with 14 samples.

Results

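The genes described here belong to the NRF2 pathway and to the glutathione, thioredoxin and detoxifying systems that defend a cell against oxidants. They were taken by symbol from the deposited count table: all 43 symbols on the list were present, of 23337 genes in all, and 42 passed the filter on low counts. Libraries labelled KO (n = 7) came from heart muscle cells of Rosa-Cas9GFP mice given AAV-Ryr2gRNA, and libraries labelled Ctrl (n = 7) from Rosa-Cas9GFP mice given AAV-Cre. Both groups therefore carried the Cas9 and GFP allele and an adeno-associated virus (AAV), injected on postnatal day 1. The cells were isolated at 4 weeks of age by heart perfusion and purified by fluorescence-activated sorting, and their poly(A) RNA was sequenced. The labels do not say whether the guide virus also carried Cre, or whether each library is a separate animal. Loss of Ryr2 and the change of virus therefore cannot be told apart, and the tests rest on a spread between libraries that may be technical in part.

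NRF2 (gene Nfe2l2) is a transcription factor that KEAP1 holds in the cytoplasm and marks for degradation by the proteasome. Oxidants and electrophiles modify KEAP1, NRF2 then accumulates in the nucleus, pairs with small MAF proteins and binds antioxidant response elements near its target genes. Because this control acts on the protein, the Nfe2l2 transcript need not follow NRF2 activity. Its targets make glutathione, recharge thioredoxin, and conjugate or export reactive compounds, while a partly separate set of enzymes handles the superoxide and peroxide that mitochondria release in a tissue as rich in them as the heart.

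The antioxidant response element was searched as the letters TGACNNNGC on either strand in the 250 bases before each RefSeq start site (GRCm38.p6, the same assembly as mm10). Of the 43 genes 38 had at least one such window, and 10 of these 38 (26.3%) held the letters, against 11.5% of all 27025 genes with a window. The letters stood in 3 of 13 genes that were higher in KO, in 0 of 10 that were lower and in 6 of 14 that did not pass the test. The genes without a window, Abcc1, Gsr, Gsta4, Prdx6 and Gclc, were all higher in KO. The search therefore covered 13 of 18 higher genes, but every gene that was lower or did not pass, which limits a comparison between calls. Distant elements lie outside these windows, and the windows of Nqo1 and Srxn1 held no match. The stretches of the higher genes are shown with the match in capitals, written in the direction of the gene, some of them on the opposite strand and so read in reverse complement:
Gclm, chr3:122245407-122245447, plus strand: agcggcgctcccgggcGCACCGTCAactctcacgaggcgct
Txnrd1, chr10:82859098-82859138, plus strand: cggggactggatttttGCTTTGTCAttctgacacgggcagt
Mt2, chr8:94172523-94172563, plus strand: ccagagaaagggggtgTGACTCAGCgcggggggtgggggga
Of the matches in genes that did not pass the test, 4 are shown for comparison, chosen after their values were seen:
Prdx1, chr4:116685450-116685490, plus strand: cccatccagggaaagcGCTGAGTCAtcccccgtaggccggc
Sod1, chr16:90220690-90220730, plus strand: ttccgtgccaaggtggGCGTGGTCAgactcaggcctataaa
Mgst1, chr6:138140455-138140495, plus strand: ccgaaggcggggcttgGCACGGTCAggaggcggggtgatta
Nfe2l2, chr2:75704879-75704913, minus strand: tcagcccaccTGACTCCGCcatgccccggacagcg
In Mt2 and Prdx1 the match also holds TGACTCA, the letters bound by AP-1 factors, or its reverse complement, so the 2 motifs overlap there.

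The libraries held 5689335 to 13165662 counts. Ryr2 itself lay between 225 and 371 CPM (the count relative to the TMM-scaled library size) in KO libraries and between 602 and 763 CPM in Ctrl libraries, so KO kept 45.8% of the Ctrl level (exact two-sided permutation test, p = 0.00058, the smallest it can give). Cardiomyocyte markers were abundant in every library, summing to between 86489 and 115139 CPM in KO and between 108849.9 and 128397 CPM in Ctrl, and 6 of 9 were lower in KO (Myl2 by -0.48 on the log2 scale, Tnnt2 by -0.28). Macrophage markers summed to 68.4 to 489 CPM in KO and 28.7 to 134 CPM in Ctrl, with 3 of 11 tested higher and 0 lower. Smooth muscle and pericyte markers summed to 1101 to 1939 CPM in KO and 589 to 977 CPM in Ctrl, without overlap. Of these 3 of 7 were higher, Tagln (log2 0.98), Cspg4 (log2 0.94) and Acta2 (log2 0.80). Acta2 alone made up most of the sum, with a mean of 1211 CPM in KO and 696 CPM in Ctrl. The others, Myh11 (log2 0.33), Rgs5 (log2 0.06), Pdgfrb (log2 -0.11) and Kcnj8 (log2 -0.24), did not pass. No tested marker of fibroblasts (8), endothelium (10) or erythroid cells (1) passed. Of the 6 erythroid markers Hba-a1 and Hba-a2 were at 0 in all libraries. The libraries with index 7 to 10 (KO 4, KO 5, Ctrl 4 and Ctrl 5) stood apart from the other 10 on the second principal component. They also held the highest macrophage sums of their groups. The index is the running number of the libraries in the order of deposit, and the labels name no batch. This set was picked with earlier results of these data known, so its place on that component is not an independent result. The part of macrophages, smooth muscle and other such cells in the results was not tested. A fit with the macrophage level as a covariate kept 27 of the 28 calls on the list, and in it the lower count of the other pathway genes was 5, against 9 without it. No fit held a term for the smooth muscle and pericyte markers, so the macrophage fit does not speak for those cells.

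In KO cells 18 genes of the list were higher and 10 were lower than in Ctrl cells, and 14 did not pass (edgeR quasi-likelihood test, adjusted p under 0.05 by the Benjamini-Hochberg method over all 11170 genes tested). Among all tested genes 14.5% were higher and 13.7% lower, or 28.2% in either direction. The share of the tested list, which was chosen with earlier results of these data known, was 42.9% higher and 23.8% lower. The median log2 fold change (KO minus Ctrl) was 0.18 over the list and 0.01 over all genes, and the median size of the change regardless of sign was 0.41 against 0.18. Changes of at least 2-fold occurred in 9 higher genes and in 0 lower ones, against 2.48% and 0.564% of all genes. In 13 higher genes all KO libraries lay above all Ctrl libraries, and in 4 lower genes all lay below, against 5.84% and 4.71% of all genes. The level the filter asks for, 1.42 CPM, was reached in all 14 libraries by 40 of the 42 tested genes, by Osgin1 in 7 KO and 6 Ctrl libraries, and by Akr1b8 in 7 KO but 4 Ctrl libraries, so that Akr1b8 passed mainly through KO. Without it 17 of 41 genes were higher and the median was 0.14. In sorted cells measured in bulk, a change in RNA per cell and a change in the share of cells that express a gene cannot be told apart.

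**Figure D1:**
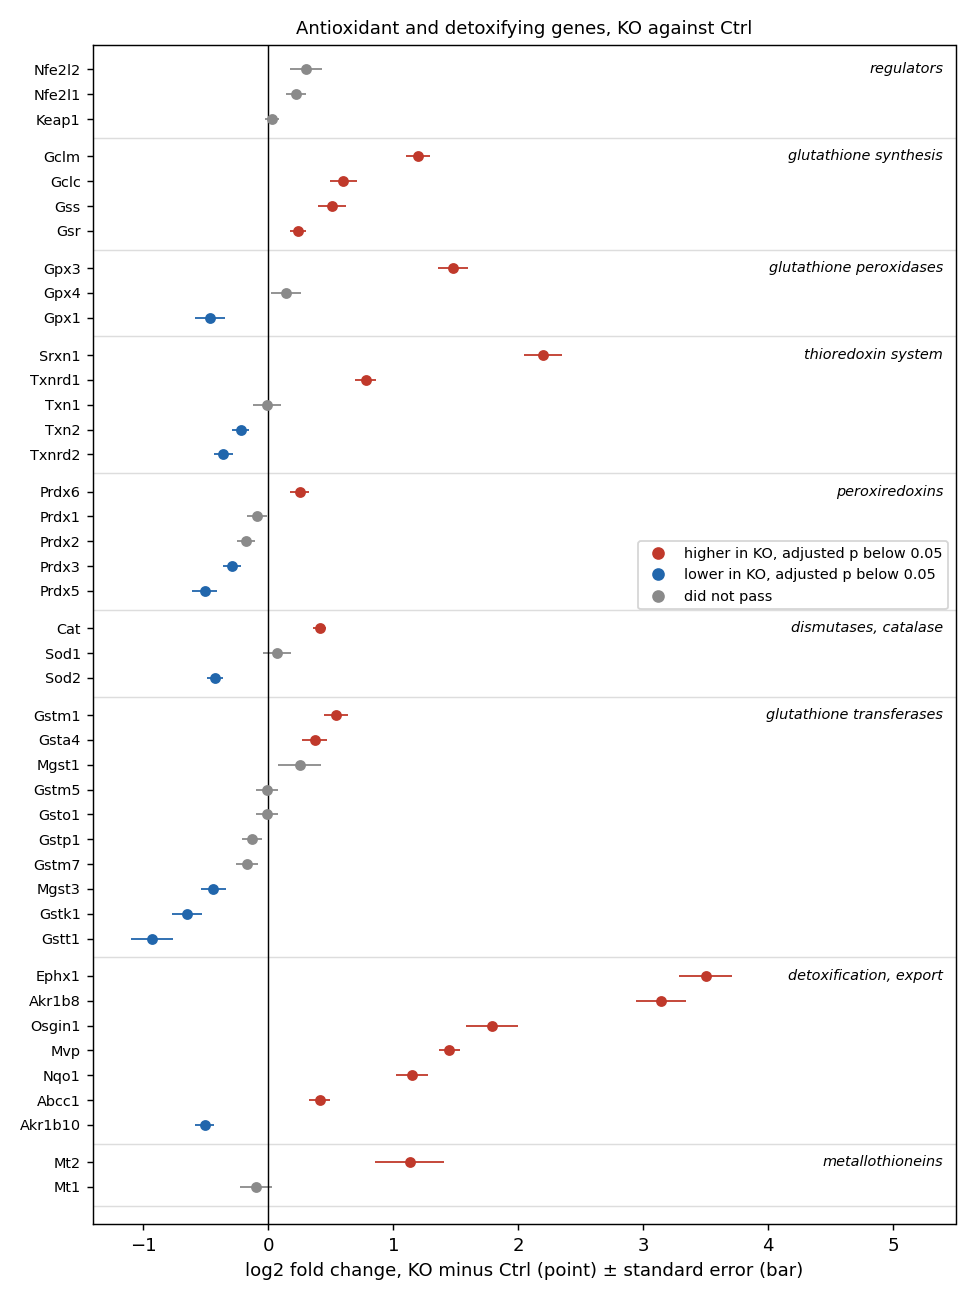
Log2 fold change, KO minus Ctrl, of the 42 tested genes with bars of 1 standard error, grouped by system and coloured by the edgeR call. The 4 genes of glutathione synthesis and recycling and all detoxifying and export genes but Akr1b10 lie above 0, while the peroxiredoxins and transferases lie on both sides.

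The 3 regulators did not pass the test over all 14 libraries, and the calls of Nfe2l1 and Nfe2l2 depended on the fit. Where 3 levels are given for a group, they are its lowest, median and highest library. Nfe2l2 stood at 92.0, 120.1 and 148 CPM in KO, against 72.8, 87.1 and 127 CPM in Ctrl (log2 0.30, SE 0.13, adjusted p = 0.11). Keap1, its inhibitor, was nearly level in all 14 libraries, at 76.3, 80.5 and 89.3 CPM in KO and 73.6, 81.4 and 88.8 CPM in Ctrl (log2 0.03, SE 0.055, adjusted p = 0.76). Nfe2l1 encodes NRF1, a related factor anchored in the endoplasmic reticulum that controls proteasome genes. It stood at 454, 585 and 649 CPM in KO, against 411, 501 and 552 CPM in Ctrl (log2 0.22, SE 0.081, adjusted p = 0.056). The groups overlapped for all 3. Nfe2l1 passed with a term for index 7 to 10 (log2 0.22, adjusted p = 0.039), with the macrophage covariate (log2 0.28, adjusted p = 0.016) and among the 10 libraries outside index 7 to 10 (log2 0.26, adjusted p = 0.044), and its log2 fold change was 0.06 within index 7 to 10. Nfe2l1 also passed without KO replicate 3, without KO replicate 4 and without Ctrl replicate 2. Nfe2l2 passed without Ctrl replicate 5 (log2 0.38, adjusted p = 0.038). Neither gene passed on leaving out any other single library. Both passed in a fit with a term for replicate number, though same-numbered replicates were not treated as pairs.

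All 4 genes that make or recycle glutathione were higher in KO, against 14.5% higher over all genes. Glutathione is built in steps, by glutamate-cysteine ligase, a pair of the catalytic subunit Gclc and the modifier subunit Gclm, and then by glutathione synthetase (Gss). Gclm stood at 38.6, 53.3 and 62.2 CPM in KO, against 18.3, 23.0 and 25.3 CPM in Ctrl (log2 1.20, SE 0.095, adjusted p = 1.3e-07). Its lowest KO library was well above its highest Ctrl library. Gclc had 23.3, 24.9 and 28.6 CPM in KO, against 12.3, 16.6 and 20.1 CPM in Ctrl, again without overlap (log2 0.60, SE 0.11, adjusted p = 4.2e-04), though it did not pass within index 7 to 10 (log2 0.54, adjusted p = 0.061). Per kilobase of exon, Gclm exceeded Gclc 3.71 to 5.54 times in KO libraries and 2.64 to 3.86 times in Ctrl libraries. Gss had 30.4, 33.7 and 42.5 CPM in KO, against 19.6, 22.6 and 31.4 CPM in Ctrl (log2 0.51, SE 0.11, adjusted p = 0.0025). Glutathione reductase (Gsr), which returns oxidised glutathione to its reduced form, had 43.5, 46.4 and 48.6 CPM in KO, against 33.1, 39.1 and 44.6 CPM in Ctrl (log2 0.24, SE 0.065, adjusted p = 0.011). The groups of Gss and Gsr overlapped slightly. Gsr lost its call among the 10 libraries outside index 7 to 10 (log2 0.22, adjusted p = 0.089) and within index 7 to 10 (log2 0.25, adjusted p = 0.23).

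The glutathione peroxidases, selenium enzymes that reduce peroxides with glutathione, had no common direction. Gpx3, the secreted plasma form, stood at 187, 269 and 321 CPM in KO, against 80.1, 89.8 and 112 CPM in Ctrl (log2 1.48, SE 0.12, adjusted p = 1.6e-07), with no overlap. Gpx1, the common form of cytosol and mitochondria, was lower, at 54.9, 76.7 and 94.8 CPM in KO against 90.2, 104 and 131 CPM in Ctrl (log2 -0.47, SE 0.12, adjusted p = 0.0061). Within index 7 to 10 Gpx1 did not pass (log2 -0.28, adjusted p = 0.20). Gpx4, which repairs oxidised membrane lipids and guards against ferroptosis, did not pass, at 250.5, 369 and 491 CPM in KO and 293, 315 and 430.2 CPM in Ctrl (log2 0.14, SE 0.12, adjusted p = 0.43), and passed with the macrophage covariate (log2 0.31, adjusted p = 0.017). Gpx4 was nevertheless the most abundant of the 3 per kilobase, at 305 CPM per kilobase in KO and 277 in Ctrl. Gpx3 reached 172 CPM per kilobase in KO, against 61.8 in Ctrl, and Gpx1 had 73.3 in KO, against 101 in Ctrl. Gpx3 was therefore below Gpx1 in every Ctrl library (0.422 to 0.771 times its level per kilobase) and above it in every KO library (1.71 to 4.04 times).

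**Figure D2:**
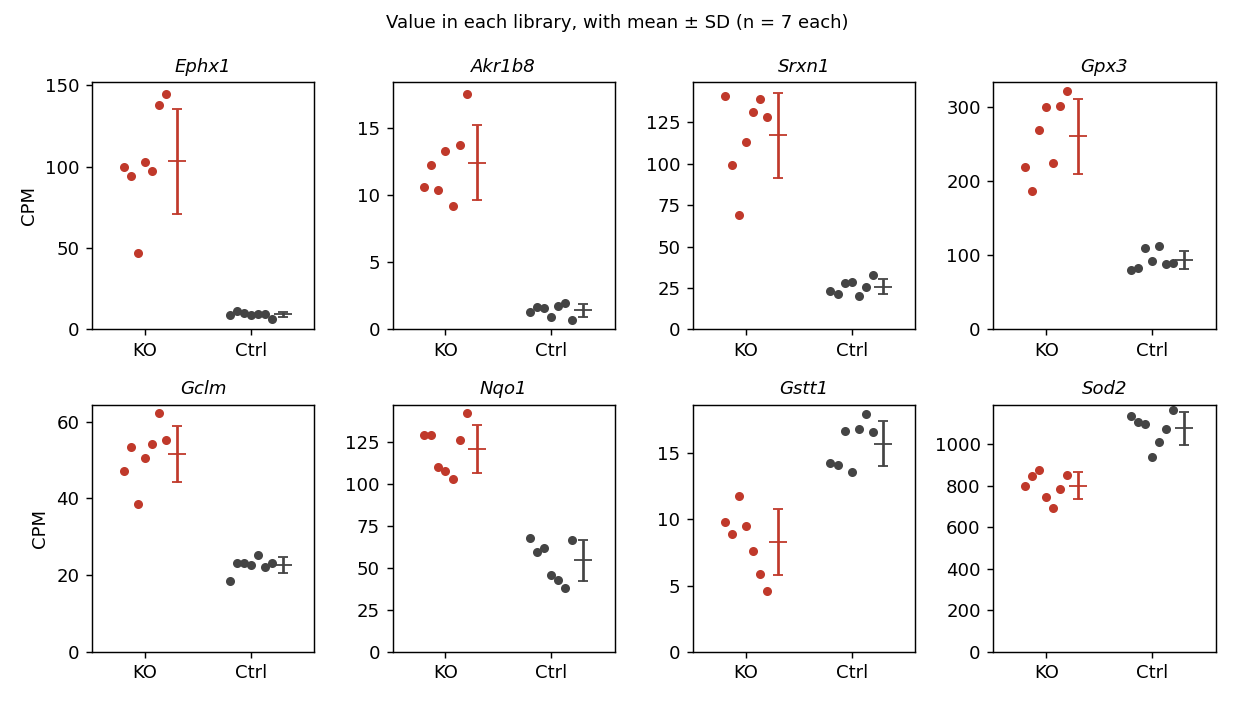
CPM (vertical axis, starting at 0) of 8 genes in each KO and Ctrl library, with the mean ± SD beside the points (n = 7 each). In each of these genes the groups do not overlap: Ephx1, Akr1b8, Srxn1, Gpx3, Gclm and Nqo1 are higher in KO, and Gstt1 and Sod2 are lower.

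In the thioredoxin system the cytosolic reductase and the repair enzyme were higher and the mitochondrial pair was lower. Sulfiredoxin (Srxn1), which rescues overoxidised peroxiredoxins, stood at 69.1, 128 and 141 CPM in KO, against 19.8, 25.7 and 32.6 CPM in Ctrl (log2 2.20, SE 0.15, adjusted p = 2.7e-08). Txnrd1, the cytosolic thioredoxin reductase, had 126, 165 and 187 CPM in KO, against 81.9, 91.1 and 106 CPM in Ctrl (log2 0.78, SE 0.084, adjusted p = 4.1e-06). Neither gene overlapped between the groups. Its substrate Txn1, cytosolic thioredoxin, had 74.4, 82.0 and 127 CPM in KO and 69.0, 88.0 and 101 CPM in Ctrl (log2 -0.01, SE 0.11, adjusted p = 0.96), a sign that changed on leaving out single libraries. The mitochondrial reductase Txnrd2 was lower, at 41.9, 47.3 and 55.9 CPM in KO against 52.3, 62.4 and 70.8 CPM in Ctrl (log2 -0.36, SE 0.078, adjusted p = 0.0023), but did not pass within index 7 to 10 (log2 -0.33, adjusted p = 0.11). Mitochondrial thioredoxin, Txn2, was lower by less, at 256, 303 and 350 CPM in KO against 325, 373 and 381 CPM in Ctrl (log2 -0.22, SE 0.067, adjusted p = 0.023). The call of Txn2 was lost with the macrophage covariate (log2 -0.13, adjusted p = 0.11), with no filter on low counts (adjusted p = 0.058) and without KO replicate 4 (adjusted p = 0.059).

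The order of the 2 reductases per kilobase turned between the groups. Txnrd1 was above Txnrd2 in every KO library (1.15 to 2.11 times) and below it in every Ctrl library (0.593 to 0.864 times). For dismutases the ratio of cytosolic Sod1 to mitochondrial Sod2 was 0.328 to 0.495 in KO, against 0.253 to 0.323 in Ctrl, also without overlap. The ratio of Txn1 to Txn2 (0.302 to 0.455 in KO and 0.259 to 0.361 in Ctrl) and that of Prdx1 to Prdx3 (0.848 to 1.06 in KO and 0.767 to 0.943 in Ctrl) overlapped. These ratios were chosen with the fold changes known and were not tested.

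**Figure D3:**
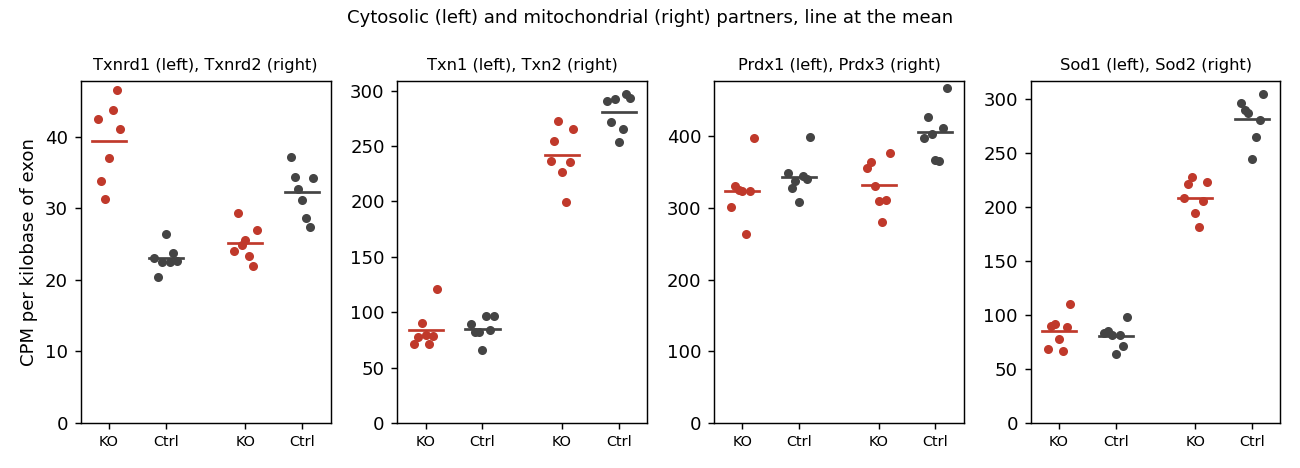
CPM per kilobase of exon (vertical axis, starting at 0) in each library for 4 pairs of a cytosolic gene (left) and its mitochondrial partner (right), with lines at the means. The mitochondrial gene is lower in KO in each pair, whereas Txnrd1 is higher in KO and Txn1, Prdx1 and Sod1 did not pass the test.

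Peroxiredoxins are abundant enzymes that reduce hydrogen peroxide with electrons from thioredoxin or, for Prdx6, glutathione. Their median change regardless of sign was log2 0.25, against 0.41 over the list and 0.18 over all genes. Of the 5 genes 1 was higher (20.0%) and 2 were lower (40.0%), against 14.5% higher and 13.7% lower over all genes. Prdx5, present in mitochondria, peroxisomes and cytosol, had 197, 249 and 311 CPM in KO, against 298, 353 and 452 CPM in Ctrl (log2 -0.51, SE 0.10, adjusted p = 0.0013). Prdx3, the mitochondrial form, had 405, 478 and 544 CPM in KO, against 529, 583 and 675 CPM in Ctrl (log2 -0.29, SE 0.073, adjusted p = 0.0070). For both the highest KO library lay above the lowest Ctrl library, so the groups overlapped. Prdx6, which also has phospholipase activity, was the one higher member, at 369.9, 435 and 556 CPM in KO against 343, 374 and 417 CPM in Ctrl (log2 0.25, SE 0.077, adjusted p = 0.023). It lost its call within index 7 to 10 (log2 0.17, adjusted p = 0.32). Prdx2 had 379, 473 and 506 CPM in KO and 463, 507 and 594 CPM in Ctrl (log2 -0.18, SE 0.071, adjusted p = 0.063), a gene that passes in the authors' deposited table (adjusted p = 0.047). Prdx1, a known NRF2 target, ranged from 374 to 563 CPM in KO and from 437 to 566 CPM in Ctrl (log2 -0.09, SE 0.077, adjusted p = 0.45). Summed per kilobase, the 5 genes stood at 1703 ± 183 in KO and 1988 ± 178 in Ctrl (SD, n = 7 each), the highest sum of the 9 systems in both groups.

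Catalase and manganese dismutase moved in opposite directions. Sod2, which converts superoxide to hydrogen peroxide in the mitochondrial matrix, stood at 693, 798 and 873 CPM in KO, against 937, 1099 and 1166 CPM in Ctrl (log2 -0.43, SE 0.064, adjusted p = 9.1e-05). Catalase (Cat), which breaks down hydrogen peroxide mainly in peroxisomes, had 376, 406 and 435 CPM in KO, against 269, 312 and 323 CPM in Ctrl (log2 0.41, SE 0.054, adjusted p = 3.0e-05). For both genes the groups did not overlap. Per kilobase, Cat reached 0.645 to 0.818 of Sod2 in KO libraries and 0.399 to 0.457 in Ctrl libraries. Sod1, the copper-zinc dismutase of the cytosol, did not pass, at 43.0, 57.6 and 71.6 CPM in KO and 41.6, 52.9 and 63.9 CPM in Ctrl (log2 0.07, SE 0.11, adjusted p = 0.68).

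By location, the 4 genes of the list grouped as working in the mitochondrial matrix (Sod2, Prdx3, Txn2 and Txnrd2) were all lower, against 13.7% lower over all genes. Their log2 fold changes lay between -0.43 and -0.22, with a median of -0.32. The call of Txn2 among them was lost with the macrophage covariate. Among the other lower genes, the products of Prdx5, Gstk1 and Gpx1 lie partly in mitochondria, and the rest were Mgst3, Gstt1 and Akr1b10. Genes that were higher or did not pass, such as Gsr, Gsta4, Gpx4 and Mgst1, were not searched for partly mitochondrial products. No common direction of partly mitochondrial genes can therefore be read from these. The selenium enzymes had no common direction: Gpx3 and Txnrd1 were higher, Gpx1 and Txnrd2 lower, and Gpx4 did not pass. Both groupings were made with results of these data known. Genes outside the list were not grouped by location, so a direction of mitochondrial genes in general cannot be read from them.

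Glutathione transferases, which couple glutathione to reactive compounds, were the system with the most genes. Of 10 tested genes 2 were higher (20.0%), 3 lower (30.0%) and 5 did not pass, against 14.5% higher and 13.7% lower over all genes. Gsta3 was too low to test, with 39 counts in all KO libraries and 23 in all Ctrl libraries. Gstm1, a mu-class enzyme, had 190.4, 256 and 318 CPM in KO, against 146, 175 and 186 CPM in Ctrl (log2 0.54, SE 0.096, adjusted p = 4.4e-04), with no overlap. Gsta4, which handles the lipid peroxidation product 4-hydroxynonenal, had 74.7, 102 and 123 CPM in KO, against 58.9, 78.0 and 86.5 CPM in Ctrl (log2 0.37, SE 0.10, adjusted p = 0.012). Gsta4 lost its call within index 7 to 10 (log2 0.18, adjusted p = 0.48). Its lowest Ctrl library, replicate 4, was far below the other 6.

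The 3 lower transferases lie outside the mu and alpha classes. Gstt1, of the theta class, fell the furthest of the whole list, to 4.57, 8.87 and 11.8 CPM in KO, against 13.6, 16.6 and 18.0 CPM in Ctrl (log2 -0.93, SE 0.17, adjusted p = 4.7e-04). Gstk1, a kappa-class enzyme of mitochondria and peroxisomes, had 33.1, 48.1 and 56.1 CPM in KO, against 60.1, 72.4 and 92.7 CPM in Ctrl (log2 -0.65, SE 0.12, adjusted p = 5.4e-04). Neither of these overlapped between groups. Mgst3, a membrane-bound enzyme and the most abundant transferase of the list per kilobase (416 CPM per kilobase in KO and 564 in Ctrl), had 204, 251 and 311 CPM in KO, against 286, 342 and 463 CPM in Ctrl (log2 -0.44, SE 0.10, adjusted p = 0.0046). The remaining 5, Gstm5, Gstm7, Gstp1, Gsto1 and Mgst1, had log2 fold changes between -0.17 and 0.25 and adjusted p between 0.17 and 0.94.

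The mu-class genes are neighbours on chromosome 3 but did not share one call. Gstm5 and Gstm7 are 27649 bases apart and Gstm7 and Gstm1 80505 bases apart. Gstm1 was called higher, while Gstm5 (log2 -0.01, SE 0.085) and Gstm7 (log2 -0.17, SE 0.090) were not called. Per kilobase, Gstm1 exceeded Gstm7 3.50 to 5.66 times in KO libraries and 2.76 to 3.29 times in Ctrl libraries. Gstm2, another gene of that class outside the list, was higher (log2 0.92, SE 0.093, adjusted p = 1.8e-06). These genes are similar in sequence, and the labels do not say how reads fitting several of them were counted, so their separate levels are uncertain.

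The detoxifying and export genes held the largest increases. Ephx1, microsomal epoxide hydrolase, which opens epoxides into diols (chromosome 1, 180989556 to 181017495, minus strand, mm10), reached 46.8, 99.8 and 145 CPM in KO, against 6.39, 9.26 and 11 CPM in Ctrl (log2 3.50, SE 0.21, adjusted p = 4.6e-09). Replicate 3 was the lowest KO library by far and still exceeded every Ctrl library. Akr1b8, an aldo-keto reductase that reduces reactive aldehydes (chromosome 6, 34354164 to 34368454, plus strand), had 9.18, 12.3 and 17.6 CPM in KO, against 0.690, 1.58 and 1.95 CPM in Ctrl (log2 3.14, SE 0.20, adjusted p = 1.6e-08). Osgin1, an oxidative stress-induced growth inhibitor, had 6.32, 8.52 and 12.2 CPM in KO, against 1.21, 2.22 and 3.28 CPM in Ctrl (log2 1.79, SE 0.21, adjusted p = 9.3e-06). Akr1b8 and Osgin1 were low genes in Ctrl cells that stayed of modest level in KO.

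A further 3 genes of this system were moderately expressed in Ctrl cells and higher in KO. Mvp, the major vault protein of a large cytoplasmic ribonucleoprotein particle, had 119, 137 and 179 CPM in KO, against 46.4, 53.6 and 57.4 CPM in Ctrl (log2 1.45, SE 0.081, adjusted p = 2.2e-09). Nqo1, the quinone reductase often used as a readout of NRF2, had 103, 126 and 142 CPM in KO, against 37.8, 59.2 and 67.6 CPM in Ctrl (log2 1.15, SE 0.13, adjusted p = 4.4e-06). Abcc1, an exporter of glutathione conjugates, had 66.2, 79.7 and 89.6 CPM in KO, against 48.2, 55.5 and 65.5 CPM in Ctrl (log2 0.41, SE 0.085, adjusted p = 0.0016). None of these overlapped between groups, although Abcc1 did not pass within index 7 to 10 (log2 0.30, adjusted p = 0.20).

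Akr1b10 was the one lower gene of the system, at 58.0, 63.0 and 77.7 CPM in KO against 83.5, 96.0 and 107 CPM in Ctrl (log2 -0.51, SE 0.079, adjusted p = 1.3e-04). It lies 15793 bases from Akr1b8 on chromosome 6, and the pair moved in opposite directions. Per kilobase, Akr1b8 was 0.140 to 0.303 of Akr1b10 in KO libraries and 0.00663 to 0.0208 in Ctrl libraries. Akr1b10 made up 49.8% of the summed level per kilobase of the 7 genes in Ctrl cells and 18.6% in KO cells, where Nqo1 (29.1%), Ephx1 (23.2%) and Mvp (19.1%) were above it. The summed level itself was 268 ± 32.1 CPM per kilobase in KO and 142 ± 10.2 in Ctrl (SD, n = 7 each).

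The metallothioneins, small cysteine-rich proteins that bind zinc and copper and are switched on by the metal-sensing factor MTF1, were split. Mt2 had 3.93, 6.17 and 10.7 CPM in KO, against 1.71, 2.42 and 5.27 CPM in Ctrl (log2 1.13, SE 0.28, adjusted p = 0.0054), with overlap. Mt1 did not pass, at 80.9, 92.9 and 104 CPM in KO and 65.6, 93.5 and 132 CPM in Ctrl (log2 -0.10, SE 0.13, adjusted p = 0.61). The more abundant gene of the pair was Mt1 throughout, with Mt2 at 0.0398 to 0.101 of its level per kilobase in KO and 0.0185 to 0.0390 in Ctrl. The 2 genes lie 5522 bases apart on chromosome 8. The metal response element was searched as TGCACNC or TGCGCNC on either strand before their start sites, letters that 21.4% of all windows held at least once and 5.17% at least 2 times. The Mt2 window had 3 matches and the Mt1 window had 1. Bases after each annotated start site, and those more than 250 before it, were not searched. The counts therefore do not compare all metal response elements of the 2 genes. Matches are in capitals, and both genes are shown because Mt2 passed the test and Mt1 did not:
Mt2, chr8:94172379-94172590, plus strand: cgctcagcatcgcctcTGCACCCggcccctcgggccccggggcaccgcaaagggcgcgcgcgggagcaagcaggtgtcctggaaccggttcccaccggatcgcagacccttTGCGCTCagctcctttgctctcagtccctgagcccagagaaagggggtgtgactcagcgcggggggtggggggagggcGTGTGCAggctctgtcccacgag
Mt1, chr8:94179050-94179088, plus strand: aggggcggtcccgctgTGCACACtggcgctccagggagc

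Within each group the libraries did not rank alike for all genes. The coefficient of variation over 7 libraries had a median of 13.3% in KO and 11.2% in Ctrl over the tested genes, and was highest for Mt2 in both (32.9% in KO and 48.7% in Ctrl). KO replicate 7 was the highest KO library for 10 of the 18 higher genes. KO replicate 3 was the lowest KO library for 7 of them and the highest for 5 of the 10 lower genes, so its values lay nearest to Ctrl most often. Among the 10 lower genes KO replicate 5 was the lowest KO library 7 times, and Ctrl replicate 4 the lowest Ctrl library 6 times, and both belong to index 7 to 10. Among the 10 libraries outside index 7 to 10 the list had 18 higher and 10 lower genes, against 12.5% higher and 11.6% lower over all genes. Within index 7 to 10, with 2 libraries per group, it had 13 higher and 8 lower, against 5.84% and 6.59% over all genes. The KO effect differed between index 7 to 10 and the other 10 libraries for 0 of 11170 genes (0.0%, edgeR interaction term, adjusted p under 0.05), with 338 genes at an unadjusted p under 0.05. None of the 42 tested list genes was among the 338, and the lowest unadjusted p on the list was 0.11.

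**Figure D4:**
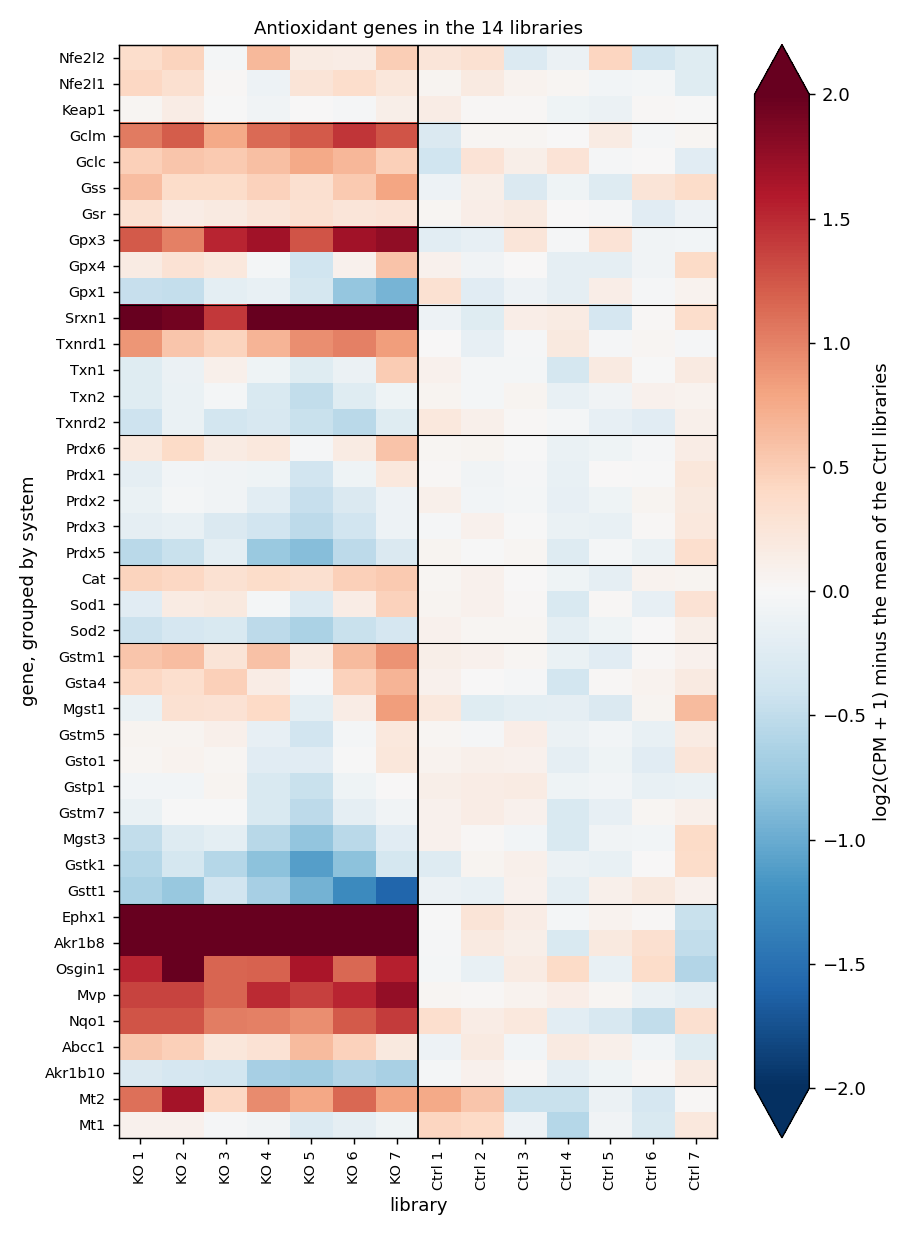
Log2(CPM + 1) of each tested gene in each of the 14 libraries, minus the mean of the Ctrl libraries (colour scale from -2 to 2, values beyond in the end colours), with KO left of the vertical line and systems separated by horizontal lines. The genes with the largest increases, such as Ephx1 and Akr1b8, are raised in all 7 KO libraries, and Prdx3 and Prdx5 are lowest in KO 5.

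Genes of the same pathway outside the list were taken in 3 groups: further NRF2 targets, further thiol and antioxidant genes, and further regulators. These groups too were chosen with earlier results of these data known. Of 26 tested NRF2 targets 17 were higher and 2 lower (Idh1 at log2 -0.47 and Blvra at -0.37, which did not pass within index 7 to 10, adjusted p = 0.41), with a median of 0.63, against 14.5% higher and 13.7% lower over all genes. Slc7a11, Gsta1, Gsta2 and Slc6a9 entered the test only through KO, and without them 13 of 22 were higher and the median was 0.49. Of 28 tested thiol and antioxidant genes 6 were higher and 6 lower (21.4% each), with a median of -0.02. Of these 1 passed the filter mainly through KO, and without it 5 of 27 were higher, 6 were lower and the median was -0.03. Of 15 tested regulators 2 were higher (13.3%) and 1 was lower (6.67%), near the shares over all genes. Here too 1 gene passed the filter mainly through KO, and without it 2 of 14 were higher and 1 was lower. The higher ones were the small MAF gene Mafg (log2 0.52, SE 0.093), which did not pass within index 7 to 10 (adjusted p = 0.13), and the KEAP1-binding peptidase Dpp3 (log2 0.49, SE 0.069). The lower one was the ubiquitin ligase component Rbx1 (log2 -0.22, SE 0.074), whose call was lost with the macrophage covariate (log2 -0.12, adjusted p = 0.19), among the other 10 libraries (adjusted p = 0.054) and within index 7 to 10 (adjusted p = 0.18). Bach1, a repressor at antioxidant response elements, did not pass (log2 0.23, SE 0.26, adjusted p = 0.57).

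Iron and haem genes were among the further targets called higher, but not all went that way. The haem breakdown gene Blvra, named above, was lower without overlap of the groups (log2 -0.37, SE 0.091, adjusted p = 0.0057). Heme oxygenase Hmox1 had 10.7, 21.7 and 39.5 CPM in KO, against 1.58, 2.27 and 3.54 CPM in Ctrl (log2 3.29, SE 0.26, adjusted p = 1.3e-07). The ferritin chains Ftl1 (log2 0.78, SE 0.092, adjusted p = 9.3e-06) and Fth1 (log2 0.54, SE 0.11, adjusted p = 0.0015), which store iron, were higher as well. Within index 7 to 10 Fth1 did not pass (log2 0.29, adjusted p = 0.068). The cystine transporter subunit Slc7a11, which feeds glutathione synthesis and is also a target of ATF4, had 749 counts in the KO libraries and 0 in the Ctrl libraries, at least 238-fold higher when the Ctrl group as a whole is set to 3 counts. The alpha-class transferase Gsta2 had 169 counts in KO and 2 in Ctrl, a ratio of 80.5 (exact 95% interval 21.9 to 670.0, counting error only). Its near copy Gsta1 had 326 counts in KO and 9 in Ctrl (log2 4.94, SE 0.42), and reads shared between them make both uncertain. Slc7a11, Gsta1, Gsta2 and the glycine transporter Slc6a9 (log2 5.32, SE 0.46) reached the count minimum only in KO libraries.

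Further called targets included the following. The autophagy receptor Sqstm1 (p62), which binds KEAP1, had 630.2, 871 and 982 CPM in KO, against 420.0, 457 and 482 CPM in Ctrl (log2 0.91, SE 0.081, adjusted p = 4.4e-07). Aldehyde oxidase Aox1 (log2 1.36, SE 0.11), pirin (Pir, log2 1.64, SE 0.19) and the exporter Abcc4 (log2 1.15, SE 0.14) were higher without overlap of the groups. G6pdx, which supplies NADPH through the pentose phosphate pathway, was low but higher in KO, at 4.47, 5.80 and 8.70 CPM against 2.36, 3.11 and 6.16 CPM in Ctrl (log2 0.72, SE 0.21, adjusted p = 0.016), and lost its call with the macrophage covariate (log2 0.44, adjusted p = 0.052) and within index 7 to 10 (log2 0.46, adjusted p = 0.32). From the thiol list Txnip, an inhibitor of thioredoxin, was called at log2 0.69 (SE 0.24, adjusted p = 0.043). That call was lost on leaving out any of KO replicates 1, 2, 3 or 7 or Ctrl replicates 1, 3, 4, 5 or 6 (adjusted p = 0.054 to 0.094).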

How the data were processed

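Read counts per gene were deposited by the authors as whole numbers, not normalized, for 14 libraries. STAR, featureCounts, DESeq2, DESeq and the build mm10 are listed, per the submitters' processing notes, without versions, annotation or strand setting. Per the labels' protocols the kits were SMART-Seq v4 and Nextera XT. A table of results deposited by the authors holds log2 fold changes, p-values, a mean signal (normalized counts) and a score (the Wald statistic). In the authors' deposited table all 42 tested genes had the same sign, with 18 higher and 11 lower.

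Groups and replicate numbers came from the titles. Counts were tested with edgeR 4.0.16 (R 4.3.3): TMM scaling, default filterByExpr, quasi-likelihood F test, no covariates, two-sided, Benjamini-Hochberg adjustment over 11170 genes. CPM used TMM-scaled library sizes, and levels per kilobase used the exon length in the file. The standard error is the log2 fold change over the square root of F. The procedure was tested on simulated data. Replicates differed by more than counting noise (chi-square per degree of freedom 4.73 to 29.7). Every row had a gene name, and 0 sample columns were unmapped. Reads had no molecular identifiers, and bounds and intervals cover counting error only. Members, lists, named genes and the set of index 7 to 10 were chosen with earlier results of these data known. All list members are named; named outside the list are Ryr2, Hmox1, Slc7a11, Ftl1, Fth1, G6pdx, Bach1, Txnip and the 8 other called pathway genes with the smallest adjusted p, plus those needed to name small counts. Msrb1 of the thiol list was not found under that symbol. Alternatives were other scaling, DESeq2 1.42.0, no filter, a replicate block, a term for or split by library index 7 to 10, a macrophage covariate, and leaving out each library. One overlap between neighbouring genes is not reported here.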

Additional observations from a re-analysis of the deposited data

Results flagged for a closer look

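Txn1 in KO replicate 7 stood at 127 CPM, far above the nearest of the other KO libraries (94.8 CPM). Gsta4 in Ctrl replicate 4 stood at 58.9 CPM, far below the nearest of the other Ctrl libraries (75.2 CPM). Each was set apart by its gap to the nearest library relative to the range of its group. These were 2 of 84 groups of 7 libraries examined, fewer than the 1 in 20 that chance gives.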

How the results depend on the processing

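Of the 28 called genes of the list, 28 kept direction and call under median-of-ratios scaling, DESeq2, the replicate block and the term for library index 7 to 10. With no filter 27 did, with the macrophage covariate 27, among the other 10 libraries 27, and within index 7 to 10, with 2 libraries per group, 21. Those lost within index 7 to 10 were Gclc, Gsr, Gpx1, Txnrd2, Prdx6, Gsta4 and Abcc1, all in the same direction. Without single libraries the list had 18 to 19 higher and 9 to 11 lower genes, its median was 0.09 to 0.22, all genes gave 1433 to 1664 higher and 1284 to 1527 lower, and the other pathway genes 24 to 26 higher and 6 to 10 lower. Libraries whose removal moved the 9 lower pathway genes to 6 were KO 1, 4 and 5 and Ctrl 7. Within index 7 to 10 all genes gave 689 higher and 777 lower (1621 and 1528 in all 14), the list median was 0.07, and the other pathway genes gave 15 higher (25 in all 14) and 5 lower (9 in all 14). With the macrophage covariate the lower count was also 5, and the cause was not tested.

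Direction changed only for genes that did not pass. Among the other 10 libraries the log2 fold changes were 0.02 for Txn1, 0.04 for Gstm5 and 0.01 for Gsto1. Within index 7 to 10 they were -0.08 for Gpx4, -0.06 for Sod1 and 0.09 for Mt1. With the macrophage covariate they were 0.07 for Txn1, 0.10 for Gstm5, 0.12 for Gsto1 and 0.04 for Mt1. Without single libraries they ranged from -0.12 to 0.03 for Txn1, -0.06 to 0.04 for Gstm5, -0.05 to 0.04 for Gsto1 and -0.00 to 0.13 for Sod1.

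Same-numbered replicates were not treated as pairs. Their deviations correlated between 0.039 (replicate 6) and 0.531, all above 0, and 2 of 7 KO libraries matched their own number best. With the replicate block the list had 20 higher and 12 lower genes, Nfe2l2 (0.32, adjusted p = 0.039), Nfe2l1 (0.21), Prdx2 (-0.19) and Gstm7 (-0.18) being added, with 1922 for all genes called higher and 1848 for all genes called lower.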
